A study of Homo sapiens with 4 samples.

Results

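Keratins are the intermediate filament proteins of epithelial cells. 8 of them, KRT7, KRT8, KRT10, KRT18, KRT19, KRT34, KRT80 and KRT81, were chosen by symbol for the simple, stress-related and hair epithelia they belong to, and 7 of these were analysed among the 12912 genes of the count table. KRT34, a hair keratin, was not analysed here. The samples were libraries of 786-O, a human clear cell renal carcinoma cell line without functional VHL, with 2 libraries of 786-O-Ctrl (genotype label wild type, VHL-null) and 2 of 786-O-VHL (VHL restored). 786-O-VHL was made with a retrovirus that expresses HA-tagged VHL, and the labels give the triple-reporter (GFP, luciferase and thymidine kinase) form of both sublines. Each group is 1 subline, and nothing in the sources says that its libraries came from separate cultures, so the p-values measure only the spread between these libraries. In such bulk libraries, fewer cells with a transcript and less of it per cell cannot be told apart.

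A keratin filament is built from dimers of 1 type I (acidic) and 1 type II (basic) chain, so that cells make both types together. KRT8 and KRT18 are the first pair of simple epithelia, including renal tubules, and KRT7 and KRT19 are found with them in ducts. Absence of KRT7 staining is one of the features by which pathologists recognize clear cell renal carcinoma. Other keratins belong to the epidermis (KRT10), to several epithelia (KRT80) or to the hair shaft (KRT81 and its close relatives KRT83 and KRT86).

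The libraries held between 2807779 (786-O-VHL replicate 1) and 22141263 counts (the deeper 786-O-Ctrl library). Both 786-O-Ctrl columns carry the same number in the table, and they are told apart here by depth, as deeper and shallower. The limit set by a count of 0 is 3 counts, or 0.142 to 0.199 CPM in 3 of the libraries and 1.02 CPM in 786-O-VHL replicate 1 (CPM, counts-per-million, with TMM scaling; counting error only). VHL mRNA stood at 42.9 and 43.9 CPM in 786-O-Ctrl, and it was higher in 786-O-VHL, at 178 and 163 CPM (log2 fold change 1.96, edgeR FDR = 2.86e-19). The cell type was checked with 12 renal tubule markers, of which 8 were measured. PAX8, PAX2 and CDH6 stood at 274, 38.7 and 217 CPM in 786-O-Ctrl, while AQP1 and CUBN were near 1 CPM, and HNF4A, LRP2, UMOD and AQP2 were not analysed here. 3 of 7 fibroblast markers summed to 8.83 to 9.04 CPM in 786-O-Ctrl and 10.2 to 11.5 CPM in 786-O-VHL. 3 of 5 endothelial markers summed to at most 1.33 CPM in any library, and CD14, the only 1 of 5 leukocyte markers measured, to at most 1.02 CPM. Of 9 markers of keratinocytes and basal epithelium, KRT15 and COL17A1 were measured, with sums of 17.1 and 18.7 CPM in 786-O-Ctrl, against 7.80 and 6.71 CPM in 786-O-VHL. KRT15 is a keratin described among the results, and COL17A1 alone was higher in 786-O-VHL, with means of 2.45 and 4.96 CPM, a call lost without 786-O-VHL replicate 2 (FDR = 0.119). None of the measured markers was at 0 in every library, and the part of such cells in the results was not tested.

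Keratin mRNA changed in both directions with VHL. KRT7, KRT10, KRT80 and KRT81 rose in 786-O-VHL, KRT8 and KRT19 fell, and KRT18 did not pass the test. By the quasi-likelihood F test of edgeR, adjusted by Benjamini-Hochberg (FDR) over 12335 genes, 4 of the 7 keratins were higher and 2 were lower at FDR < 0.05. This share has to be read against the background, since 64.5% of all tested genes passed this threshold, 32.6% as higher and 31.9% as lower. At the stricter threshold of a 4-fold change with FDR < 0.01, which 4.46% of tested genes passed, only KRT7 remained among the 7, as 1 of the 2.92% that were higher. In all 7 keratins, the 786-O-VHL libraries lay on 1 side of the 786-O-Ctrl libraries, as in 80% of tested genes. A positive log2 fold change means higher in 786-O-VHL, and it is given with the standard error (SE) implied by the F statistic.

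**Figure D1:**
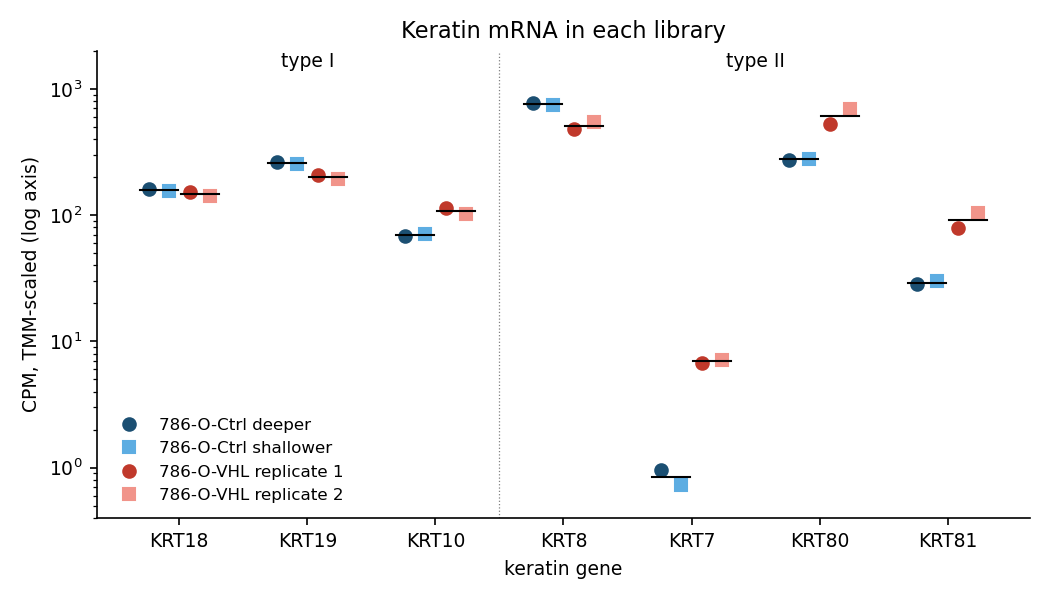
TMM-scaled CPM on a log axis for the 7 keratins, 1 point per library, with short black lines at the mean of each group of 2. KRT7 rose from under 1 CPM to about 7 CPM, KRT80 rose to 530 and 686 CPM, KRT8 dropped to 477 and 541 CPM, and KRT18 stayed between 141 and 162 CPM.

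Among the simple epithelial pair, KRT8 (ENSG00000170421.12, GRCh37, chromosome 12, minus strand, from 53290971 to 53343738) fell. It measured 769 and 741 CPM in 786-O-Ctrl, but 477 and 541 CPM in the 786-O-VHL libraries. Both 786-O-VHL libraries were below both 786-O-Ctrl libraries, with group means of 755 ± 19.6 and 509 ± 45.5 CPM (SD, n = 2 each). The change was 1.47-fold (log2 fold change -0.56, SE 0.0645, edgeR FDR = 1.62e-08). Its partner KRT18 (ENSG00000111057.11, plus strand of chromosome 12 from 53342655 to 53346690) was at 162 and 154 CPM in 786-O-Ctrl, against 153 and 141 CPM in 786-O-VHL. The KRT18 libraries were nearly contiguous, and the log2 fold change of -0.12 (SE 0.0663, edgeR FDR = 0.103) did not pass. Its sign depended on the scaling, at 0.01 (FDR = 0.909) with library totals alone, and it passed with 786-O-VHL replicate 1 left out, at -0.16 (FDR = 0.0109).
The genes overlap head to head on opposite strands, and their annotated exons share 525 bases. No source used here says whether strand was used in counting, so reads of that stretch cannot be told apart. An annotated miRNA gene shares 88 exonic bases with KRT18 on the same strand. The annotation also holds 51 KRT8 and 68 KRT18 pseudogenes, with which reads can be shared, and the levels of both genes are uncertain to that extent.

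The ratio of KRT8 to KRT18 within a library does not depend on the scaling between libraries. Per kb of the canonical transcript it was 3.76 and 3.81 in 786-O-Ctrl, against 2.47 and 3.03 in 786-O-VHL. All of the 786-O-VHL values were lower, and the log2 ratio differed by -0.47, with an SD between replicates of 0.0117 for 786-O-Ctrl, 0.208 for 786-O-VHL. An exact two-sided permutation test gave p = 0.333, the smallest that 2 libraries against 2 allow.

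The ductal keratins KRT7 and KRT19 moved apart. KRT7 (ENSG00000135480.16, plus strand of chromosome 12 from 52626304 to 52645970) had 20 counts in the deeper 786-O-Ctrl library and 11 in the shallower, against 20 in replicate 1 and 120 in replicate 2 of 786-O-VHL. In CPM these were 0.950 and 0.731 against 6.78 and 7.13, since replicate 1 is the shallowest library. KRT7 was thus under 1 CPM in both 786-O-Ctrl libraries and low in 786-O-VHL, at 6.96 ± 0.242 CPM (SD, n = 2). The rise was 8.15-fold (log2 fold change 3.03, SE 0.313, edgeR FDR = 1.91e-09), the largest among the 7 keratins, and it stayed between 2.87 and 3.24 on the log2 scale with each library left out in turn. An antisense gene, KRT7-AS, shares 282 exonic bases with KRT7 on the opposite strand, and the pseudogene KRT87P shares 32.
KRT19 (ENSG00000171345.13, minus strand of chromosome 17 from 39679869 to 39684560), a type I keratin with almost no tail domain, was at 262 and 255 CPM in 786-O-Ctrl, against 208 and 194 CPM in 786-O-VHL. Its fall was small but larger than the spread between libraries, 1.30-fold (log2 fold change -0.37, SE 0.0645, edgeR FDR = 1.13e-05). The annotation holds 5 KRT19 pseudogenes, with which reads can be shared, so the KRT19 level is uncertain to that extent. The KRT7 to KRT19 ratio per kb was 0.00310 and 0.00246 in 786-O-Ctrl, against 0.0279 and 0.0314 in 786-O-VHL, a difference of 3.42 in log2 (exact two-sided permutation p = 0.333, the smallest possible). KRT7 thus stayed far below KRT19 per kb in both sublines.

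KRT80 and KRT81 rose from levels that were already well above background. KRT80 (ENSG00000167767.14, minus strand of chromosome 12 from 52562780 to 52585798), a type II keratin of many epithelia, was at 274 and 278 CPM in 786-O-Ctrl, against 530 and 686 CPM in 786-O-VHL. The groups were far apart although the 786-O-VHL libraries differed from each other, with means of 276 ± 2.80 and 608 ± 110 CPM (SD, n = 2 each). The rise was 2.24-fold (log2 fold change 1.16, SE 0.0778, edgeR FDR = 2.37e-13). KRT81 (ENSG00000205426.10, minus strand of chromosome 12 from 52679697 to 52685318), a type II keratin of the hair shaft, was at 28.4 and 29.9 CPM in 786-O-Ctrl, against 78.4 and 104 CPM in 786-O-VHL. It rose 3.33-fold (log2 fold change 1.73, SE 0.0923, edgeR FDR = 1.48e-15). In both genes replicate 2 was the higher of the 786-O-VHL libraries. KRT81, KRT83 and KRT86 are near-identical copies, and reads may have been split between them or lost, so the level of each is uncertain.

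KRT10 (ENSG00000186395.8, minus strand of chromosome 17 from 38974369 to 38978866), the type I keratin of differentiating epidermal cells, was the only type I keratin among the 7 that rose. It was at 68.6 and 71.0 CPM in 786-O-Ctrl, against 115 and 101 CPM in 786-O-VHL. Both 786-O-VHL libraries were higher, and the rise was 1.51-fold (log2 fold change 0.59, SE 0.0722, edgeR FDR = 4.19e-08). KRT10-AS1, listed in the table under its older symbol TMEM99, overlaps KRT10 on the opposite strand over 61 exonic bases and had a log2 fold change of 0.39 (edgeR FDR = 0.0151), a call lost with a library left out (highest FDR = 0.168, without 786-O-VHL replicate 2).

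Start site windows of 300 bases from RefSeq (GRCh38.p14) were available here for only KRT8, KRT10 and KRT79 of the 13 measured keratins. Shown are those of KRT10, which rose, and KRT79, a keratin near KRT8 that fell, matched to GRCh37. In both, the start site is that of the canonical transcript, and most of the window lies before it. They are printed 5′ to 3′ on the strand of the gene, and capitals mark a motif found.
KRT10, chr17:38978817-38979116, minus strand: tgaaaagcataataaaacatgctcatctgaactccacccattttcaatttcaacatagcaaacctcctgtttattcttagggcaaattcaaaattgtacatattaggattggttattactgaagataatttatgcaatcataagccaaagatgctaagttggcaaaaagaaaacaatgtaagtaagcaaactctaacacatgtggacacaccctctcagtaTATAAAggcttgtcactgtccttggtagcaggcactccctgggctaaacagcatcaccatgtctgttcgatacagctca
KRT79, chr12:53228046-53228345, minus strand: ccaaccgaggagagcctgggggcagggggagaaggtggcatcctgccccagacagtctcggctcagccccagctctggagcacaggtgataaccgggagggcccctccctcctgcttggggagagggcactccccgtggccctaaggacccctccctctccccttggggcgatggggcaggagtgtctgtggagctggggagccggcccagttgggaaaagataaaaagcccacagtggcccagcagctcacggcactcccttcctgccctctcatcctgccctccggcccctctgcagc
The capitals in KRT10 are a TATA box (TATAAA) whose first base lies 29 bases before the start. The other motifs searched on both strands were the HIF core (ACGTG), AP-1 (TGANTCA) and the GC box (GGGCGG). None of these is in the KRT10 window, and none of the 4 is in the KRT79 window. Of the 35116 windows in the RefSeq table, 11.5% hold the TATA box, 21.4% the HIF core, 7.71% AP-1 and 45% the GC box. The KRT8 window of the table lies far upstream of the canonical start and was not used.

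The make-up of the summed keratin mRNA differed between the sublines. The 7 keratins summed to 1565 and 1529 CPM in 786-O-Ctrl, against 1568 and 1775 CPM in 786-O-VHL. Levels were compared between genes per kb of the canonical transcript. In 786-O-Ctrl the order was KRT8 (423 ± 11 CPM per kb; SD, n = 2), KRT19 (186 ± 4.01), KRT18 (112 ± 3.81), KRT80 (71.1 ± 0.723), KRT10 (32.6 ± 0.794), KRT81 (15.1 ± 0.571) and KRT7 (0.517 ± 0.0952), and no neighbors in this order overlapped. In 786-O-VHL KRT8 was still first at 285 ± 25.5 CPM per kb (SD, n = 2). KRT80 (137 and 177) then overlapped KRT19 (150 and 140), and KRT10 (53.5 and 47.1) overlapped KRT81 (40.6 and 54.1), so these pairs were not ordered. KRT18, between those pairs, was at 104 ± 5.69 CPM per kb (SD, n = 2), and KRT7 was last at 4.28 ± 0.149.
As a share of the summed level per kb, KRT8 went from 50.4% ± 0.299 to 36.0% ± 1.12 and KRT19 from 22.1% ± 0.0349 to 18.3% ± 1.96 (SD, n = 2 each). KRT80 went from 8.47% ± 0.255 to 19.7% ± 2.43 and KRT81 from 1.80% ± 0.104 to 5.95% ± 0.853. KRT18 held 13.3% ± 0.187 and 13.2% ± 1.49. The order depends on the length used. With all annotated exons, which are 6881 bases long in KRT8 against 1784 in its canonical transcript, KRT19 and KRT8 held 28.9% and 28.7% in 786-O-Ctrl, and KRT80 held the largest share of 786-O-VHL, 31.1% ± 3.55.

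**Figure D2:**
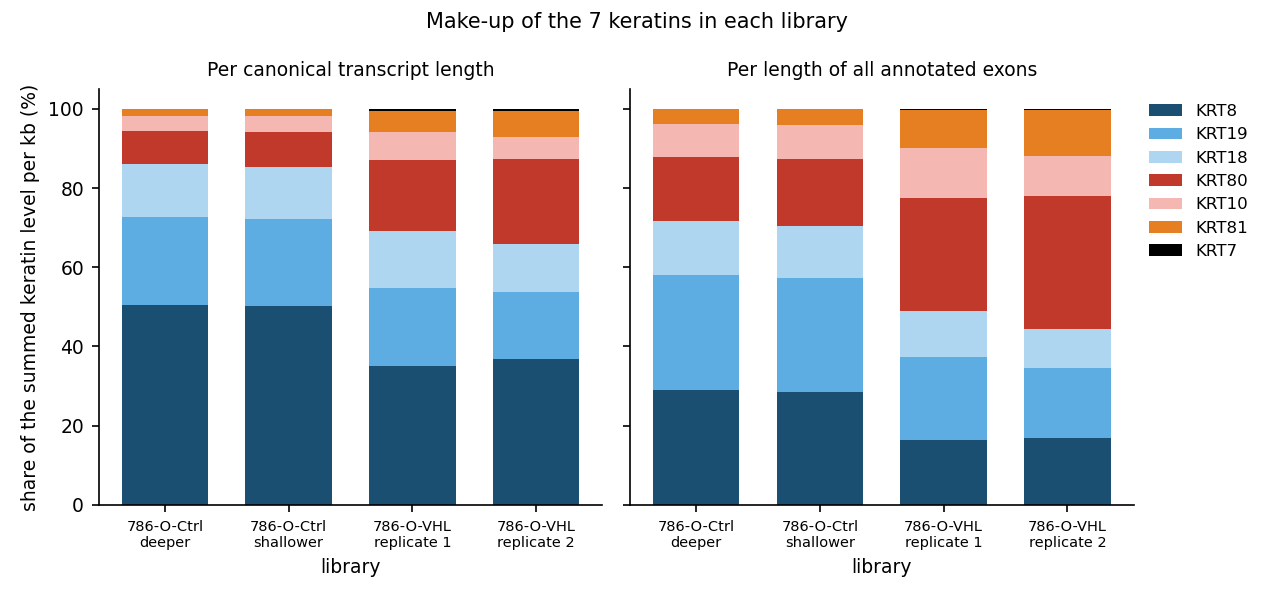
Stacked bars of the share (%) of each of the 7 keratins in their summed level per kb, 1 bar per library, per canonical transcript length on the left and per length of all annotated exons on the right. With either length the KRT80 and KRT81 parts are larger and the KRT8 part is smaller in both 786-O-VHL libraries.

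The balance of type II chains (KRT7, KRT8, KRT80 and KRT81) to type I chains (KRT10, KRT18 and KRT19) was not separated between the groups. Per kb it was 1.54 and 1.55 in 786-O-Ctrl, against 1.44 and 1.88 in 786-O-VHL, with the 786-O-Ctrl values between those of 786-O-VHL (log2 difference 0.09, exact two-sided permutation p = 1). Leaving out 786-O-VHL replicate 2 turned the sign, to -0.10. With all annotated exons the difference was 0.55 and the groups did not overlap (exact permutation p = 0.333, the smallest possible).

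The table holds 6 further keratins, 5 of which were tested. KRT86, the hair keratin next to KRT81, had 28 and 16 counts in 786-O-Ctrl, against 35 and 277 in 786-O-VHL, or 1.33 and 1.06 against 11.9 and 16.4 CPM. It rose 12.4-fold (log2 fold change 3.64, SE 0.245, edgeR FDR = 2.61e-13). KRT83, the third of these hair keratins, had 0 and 1 counts in 786-O-Ctrl, against 4 and 20 in 786-O-VHL. The ratio of its pooled rates was 43.8, with an exact 95% counting interval from 7.14 to 1801 (edgeR FDR = 2.26e-05). By these counts KRT81 and KRT86 were higher in 786-O-VHL, while the size of the KRT83 change is poorly known. Reads may be shared between these near-identical genes, so their rises are not separate results. KRT86 also shares 126 exonic bases with a pseudogene on the same strand. It shares 221, 76 and 32 with noncoding RNA genes on the opposite strand.
KRT79, a type II keratin of sebaceous glands and hair canals, fell. It had 188 and 129 counts in 786-O-Ctrl, against 4 and 20 in 786-O-VHL, or 8.93 and 8.57 against 1.36 and 1.19 CPM, 7.17-fold lower (log2 fold change -2.84, SE 0.288, edgeR FDR = 1.23e-09). KRT15, a type I keratin of basal epithelial cells, fell from 14.7 and 16.2 to 3.05 and 1.54 CPM, 8.57-fold (log2 fold change -3.10, SE 0.242, edgeR FDR = 6.03e-12). Both were lower in each 786-O-VHL library than in either 786-O-Ctrl library.
KRT17, the keratin of wounded and stressed epidermis, had 2 and 3 counts in 786-O-Ctrl, against 2 and 20 in 786-O-VHL. Its log2 fold change was 2.90 (SE 0.702, edgeR FDR = 0.000702), but the 2 counts of replicate 1 are under the limit of 3, and DESeq2 did not call it (adjusted p = 0.0598). Reads can also be shared with 8 annotated KRT17 pseudogenes, and a noncoding RNA gene on the opposite strand shares 307 exonic bases with KRT17. KRT222 had 0 and 2 counts in 786-O-Ctrl, against 3 and 9 in 786-O-VHL and was too low to be tested, with a pooled rate ratio of 10.9 (exact 95% counting interval from 2.44 to 101). A protein-coding gene on the same strand shares 1092 exonic bases with KRT222, so its reads can be shared too. KRT17 and KRT83 passed the filter on low counts through 786-O-VHL alone, so their calls in that direction carry little weight.

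Human keratin genes lie in clusters, type II with KRT18 on chromosome 12 and the other type I genes on chromosome 17, and on chromosome 12 keratins that moved the same way lay together. The 5 measured keratins from KRT80 to KRT83 lie within 152 kb, and KRT80, KRT7, KRT86 and KRT81 were higher in 786-O-VHL. KRT83 was called higher too, but it passed the filter through 786-O-VHL alone, so that its direction was favored by the filter. Reads may also be shared between KRT81, KRT83 and KRT86, so their rises are not separate results. After a gap of 500 kb, which holds keratins not analysed here, KRT79, KRT8 and KRT18 lie within 131 kb, and KRT79 and KRT8 were lower while KRT18 was not called. This order was noticed after the values were seen, and no test was made of it. The 5 tested genes before KRT80 had log2 fold changes from -0.61 to 0.64, with 2 higher (ACVR1B and NR4A1) and 3 not called. The 5 after KRT18 ranged from -2.21 (SOAT2) to 0.53, with 3 higher, 1 lower and 1 not called. The calls of ACVR1B, NR4A1 and SOAT2 were lost without 786-O-VHL replicate 2 (FDR = 0.0741, 0.0916 and 0.188). The rises of KRT7, KRT80, KRT81 and KRT86 were each larger than that of any of these 10 flanking genes, but these keratins were picked because they rose. Among the genes that fell, KRT79 (-2.84) changed more than SOAT2 (-2.21) and KRT8 (-0.56) changed less.
On chromosome 17, KRT15 and KRT19 are neighbors with 1.09 kb between them, and both were lower. KRT10 on one side was higher, and KRT17 on the other was called higher by edgeR but not by DESeq2, after passing the filter through 786-O-VHL alone. The 5 tested genes on either side of this stretch had log2 fold changes from -0.28 to 0.66 before KRT10 and from -0.32 to 1.12 (EIF1) after KRT17.

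**Figure D3:**
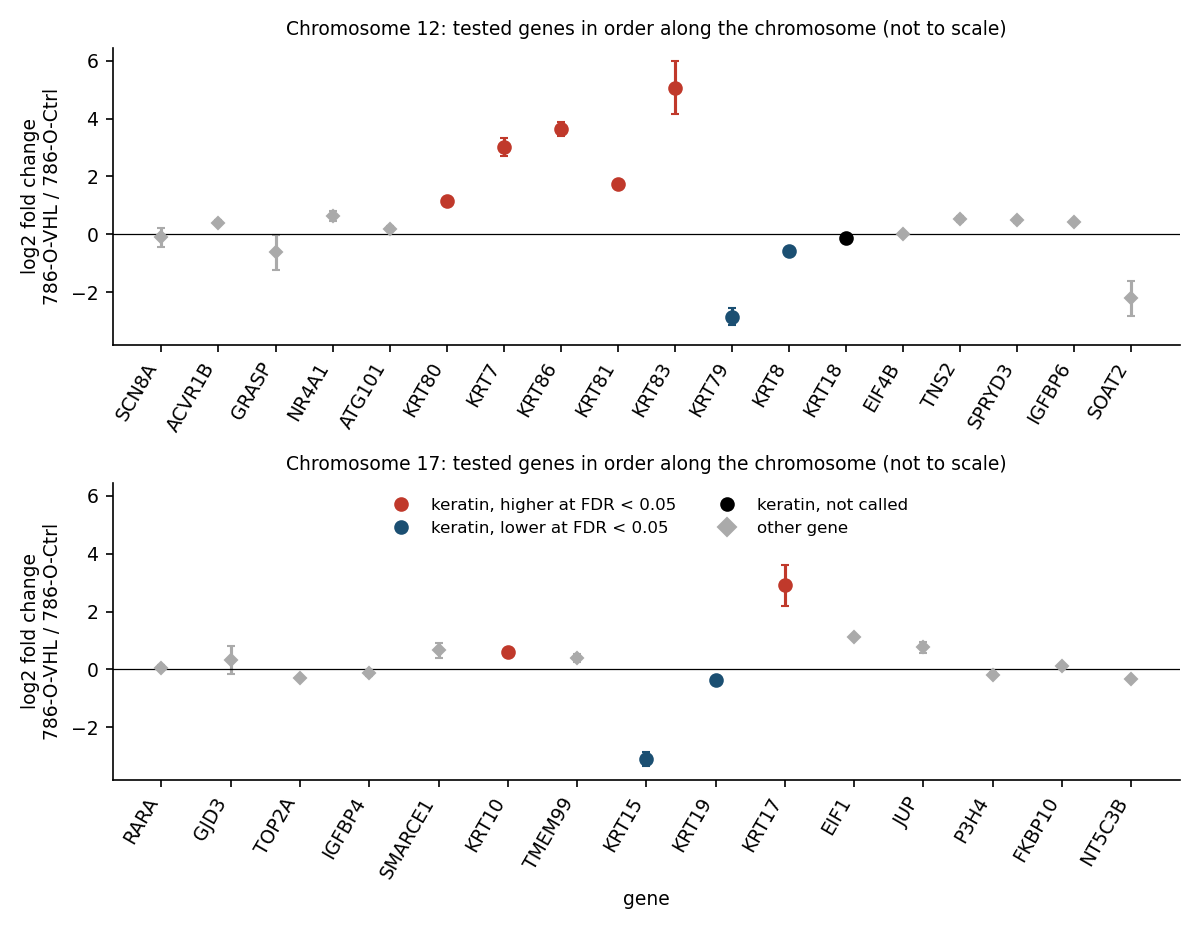
Log2 fold changes (786-O-VHL over 786-O-Ctrl) with SE bars of the tested keratins and of the 5 tested genes on each side, in their order along chromosomes 12 and 17, evenly spaced. On chromosome 12 the keratins from KRT80 to KRT83 sit above 0 and KRT79 and KRT8 below it. The value of KRT83, which has 1 count in 786-O-Ctrl, depends on edgeR's prior count.

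The tested genes most like KRT7 in pattern were sought by the distance between their centered log2 CPM over the 4 libraries. PAPPA2, a protease of IGF-binding proteins (distance 0.159), had 42 and 22 counts in 786-O-Ctrl, against 36 and 203 in 786-O-VHL (log2 fold change 2.77). PKIB, a protein kinase A inhibitor (distance 0.192), and APOL3, an apolipoprotein L gene (distance 0.192), had log2 fold changes of 2.79 and 2.94. Over 4 libraries in 2 groups, this says little more than that their changes had a similar size.

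Of 17 other intermediate filament genes, 11 were tested, with 8 lower and 3 higher at FDR < 0.05, where 31.9% of all tested genes were lower and 32.6% higher. Their median log2 fold change was -0.85, against 0.02 over all genes tested, and 1 of the 8 (NES) passed the filter on low counts through 786-O-Ctrl alone. VIM (vimentin), the filament of mesenchymal cells that renal carcinoma cells carry beside keratins, was at 1669 and 1699 CPM in 786-O-Ctrl, against 751 and 709 CPM in 786-O-VHL (log2 fold change -1.21, SE 0.0605, edgeR FDR = 3.66e-16). NES (nestin), with 95 and 53 counts in 786-O-Ctrl, against 2 and 5 in 786-O-VHL, had a log2 fold change of -3.48. The nuclear lamins LMNB1 and LMNB2 had log2 fold changes of -1.69 and -1.58. GFAP, BFSP1 (a lens filament gene) and IFFO2 rose, with log2 fold changes of 2.08, 1.99 and 1.14, GFAP and BFSP1 from about 1 CPM.

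Genes of desmosomes and hemidesmosomes, the junctions in which keratin filaments end, were called in both directions. All 16 measured of 22 listed were tested, with 9 higher, 5 lower and 2 not called, and their median log2 fold change was 0.47. Of all tested genes, 32.6% were higher and 31.9% lower. The count depended on the method, with 6 higher and 4 lower by DESeq2. With counts thinned to the shallowest library, 6 of 15 tested were higher and 5 lower. ITGB4, the integrin subunit of hemidesmosomes, was at 6.22 and 6.38 CPM in 786-O-Ctrl, against 41.0 and 46.7 CPM in 786-O-VHL (log2 fold change 2.84, SE 0.129, edgeR FDR = 4.14e-17). PPL (periplakin), a linker of keratin filaments, and PKP2 (plakophilin 2) rose by log2 fold changes of 2.30 and 1.25, and JUP (plakoglobin) by 0.77. DSP (desmoplakin), the main anchor of keratins at desmosomes, was low at 1.33 and 0.930 CPM in 786-O-Ctrl, against 1.36 and 2.08 CPM in 786-O-VHL (log2 fold change 0.74, edgeR FDR = 0.112). PLEC (plectin), which ties keratins to hemidesmosomes, went from 2955 and 2811 CPM to 1702 and 1838 CPM (log2 fold change -0.70, SE 0.0605, edgeR FDR = 4.73e-11), and PERP and ITGA6 fell, with log2 fold changes of -0.87 and -0.49.

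Of 20 tested genes that bind, fold or organize keratins, 9 were lower, 4 higher and 7 not called, a share called near the 64.5% of all tested genes, and the median of their log2 fold changes was -0.22. The chaperones HSPA8 and HSPB1 fell most, HSPA8 from 1149 and 1030 CPM to 236 and 175 CPM (log2 fold change -2.46) and HSPB1 by a log2 fold change of -1.76, followed by the mitotic kinase PLK1 at -0.69. The kinase PRKCE, whose product phosphorylates KRT18, rose from 22.8 and 28.1 CPM to 131 and 162 CPM (log2 fold change 2.59, SE 0.0914, edgeR FDR = 1.81e-19), and CSNK1A1 had a log2 fold change of 0.28.
Of 20 tested transcription factors that act on epithelial genes, 9 were higher, 4 lower and 7 not called, again a share near the background of 64.5%, and the median of their log2 fold changes was 0.26. KLF4, a factor of epithelial differentiation, was at 22.4 and 24.7 CPM in 786-O-Ctrl, against 130 and 134 CPM in 786-O-VHL (log2 fold change 2.51, SE 0.0772, edgeR FDR = 1.07e-20). CEBPB and the AP-1 subunit JUNB followed, with log2 fold changes of 1.49 and 1.38. TFAP2C, ETS2 and SP3 fell, with log2 fold changes of -0.69, -0.41 and -0.27. The calls of TFAP2C and SP3 were lost with a library left out (highest FDR = 0.316, without the deeper 786-O-Ctrl library, and 0.0527, without 786-O-VHL replicate 2). TP63, GRHL2 and OVOL1, other factors of stratified or simple epithelia, were not analysed here.

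Partners of the epidermal and hair keratins were measured only in part. Of 25 genes of the cornified envelope and epidermal differentiation, 2 were tested and both were lower (background 31.9%), FLG (filaggrin) from 138 and 129 CPM to 35.3 and 62.5 CPM (log2 fold change -1.26, SE 0.103, edgeR FDR = 1.64e-11) and TGM5 from 23 and 18 counts to 0 and 3. TGM5 passed the filter through 786-O-Ctrl alone, and its call was lost without 786-O-VHL replicate 2 (FDR = 0.0673). FLG and KRT10, which are made together in the epidermis, thus went in opposite directions here. Of 12 genes of the hair shaft and follicle, 5 were tested, with 3 higher and none lower, while 2 were not called, a share near the 64.5% of all tested genes. FOXQ1, a factor of hair differentiation, rose from 4.27 and 4.05 CPM to 20.4 and 18.9 CPM (log2 fold change 2.21, SE 0.175, edgeR FDR = 8.37e-12). MSX2 and GATA3 had log2 fold changes of 1.29 and 0.58 and were not called by DESeq2, nor in every fit with a library left out (highest FDR = 0.15 and 0.249), and MSX2 passed the filter through 786-O-VHL alone.

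**Figure D4:**
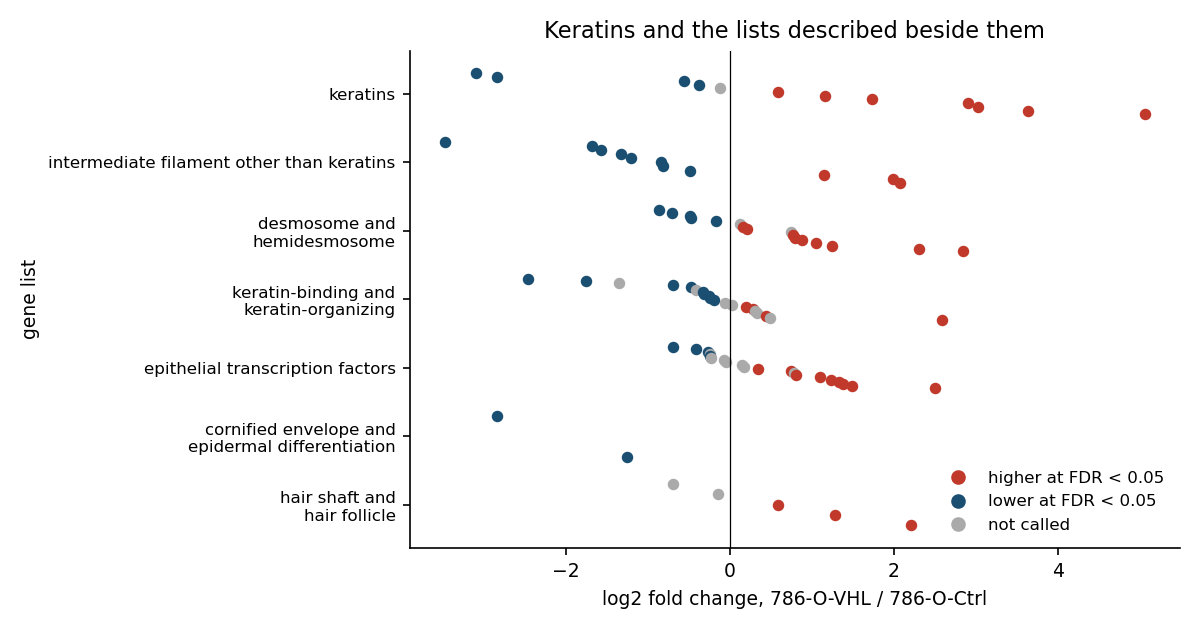
Log2 fold changes (786-O-VHL over 786-O-Ctrl), 1 point per tested gene, for the keratins and for the 6 lists described beside them, in red and blue where a gene was higher or lower at edgeR FDR < 0.05 and grey where it was not called. Keratins extend from -3.10 (KRT15) to KRT83, whose value depends on edgeR's prior count, and intermediate filament genes other than keratins lie mostly below 0.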

How the data were processed

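RNA of both sublines was sequenced by the authors on an Illumina platform and aligned to hg19. The submitters' processing notes name CASAVA and STAR. The authors deposited raw counts per gene for 12912 genes; for the counter, strand and annotation no statement was found in the sources used here. Genes were taken by Ensembl identifier (for a repeated symbol, the one with most counts), and 12749 identifiers were found in a GENCODE annotation lifted to GRCh37, which gave coordinates, overlaps and lengths. The test of the counts was made in edgeR 4.0.16 under R 4.3.3 (filterByExpr at a minimum count of 10, TMM, quasi-likelihood F test with the group as only term, Benjamini-Hochberg over 12335 genes). Replicates differed by more than sampling noise (chi-square per degree of freedom 2.25 for 786-O-Ctrl, 2.76 for 786-O-VHL). On simulated counts for 12335 genes, edgeR found 90 of 100 genes changed 2-fold and 100 of 100 changed 8-fold, with 9 false calls. Far fewer genes were changed in the simulation than the 64.5% of tested genes called in the data. The 9 false calls are therefore not an error rate for the real comparison, and scaling was not tested with so many genes changed.

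The members and lists were chosen with earlier results of these data known. Named were all keratins, of each list at most 3 genes per direction with the largest change past FDR < 0.05 plus VIM, DSP, JUP and PLEC, and the 3 genes nearest to the most changed of the 7 keratins; some genes of the lists are not reported here. Alternatives were DESeq2 1.42.0, limma-voom (limma 3.58.1), RLE or no scaling, other filters, a prior count of 2, thinning to the shallowest library and leaving out each library. Lengths are those of the canonical transcript, with all annotated exons as an alternative added after the data were seen.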

Additional observations from a re-analysis of the deposited data

How the results depend on the processing

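The 4 higher and 2 lower keratins among the 7 kept these counts under every alternative except that leaving out 786-O-VHL replicate 1 also called KRT18 as lower. A prior count of 2 alters the fold changes but not the FDR, so it could not change a call. Scaling by library totals alone moved the median log2 fold change of all genes from 0.02 to 0.15 and turned that of KRT18 to 0.0093.

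Among the other keratins, the number higher went from 3 to 1 with at least 10 counts in every library and with thinning, and between 1 and 3 with each library left out (1 without 786-O-VHL replicate 2), because fewer were tested, and the number lower went from 2 to 0 with at least 10 counts. KRT17 was lost with DESeq2, at 2.76. For the KRT7 to KRT19 ratio, thinning gave a log2 difference of 3.03 in place of 3.42. The type II to type I ratio, at 0.09, was 0.55 with all annotated exons and between -0.10 and 0.28 with a library left out.

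Of the keratin-binding genes, 5 in place of 9 were lower with library totals, 6 with DESeq2 and 6 of 15 tested with thinning. The number higher was 3 with DESeq2 and 4 with library totals and with thinning. Of the transcription factors, 2 in place of 4 were lower with library totals and with thinning. Of the cornified envelope genes, 1 in place of 2 was lower with at least 10 counts, with thinning and without 786-O-VHL replicate 2, and between 1 and 2 over all libraries left out. Of the hair genes, 1 in place of 3 was higher with DESeq2 and with thinning, and between 1 and 2 with a library left out (1 without either 786-O-Ctrl library or 786-O-VHL replicate 2), and between 0 and 1 were lower. The cause was not tested except where fewer genes were tested.

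No paired analysis was possible because the table gives 1 replicate number to both of its 786-O-Ctrl columns. The 2807779 counts of 786-O-VHL replicate 1 limit what can be said of keratins under about 1 CPM.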
